A study of Saccharomyces cerevisiae with 18 samples.

Results

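The nmd4 deletion was compared with its wild type in exponentially growing Saccharomyces cerevisiae. The members are 6 samples of 18 in the series: the 3 nmd4 deletion samples and the 3 wild type samples of the same experiment, chosen by their labels. The nmd4 deletion and its wild type are both BY4741, a mating type a strain of the S288C lineage, and differ by label only in the nmd4 deletion. All were grown in YPD at 30 °C to an optical density of 0.6, and total RNA was depleted of ribosomal RNA and made into stranded TruSeq libraries. The same experiment held 3 ebs1 deletion samples of BY4741 and 3 samples labelled as an nmd4 ebs1 double deletion of BY4742, mating type alpha. An earlier experiment of the series held 3 upf1 deletion samples and their own 3 wild type samples. The labels give neither the number of colonies behind a group nor whether the deletion strain was 1 clone, so p-values measure the spread between these samples, which may be technical. All nmd4 libraries carry one sequencing index and all wild type libraries another, so index and genotype cannot be told apart.

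Nonsense-mediated mRNA decay (NMD) removes mRNAs on which translation ends too early or in an unusual context. The helicase Upf1, called NAM7 in the annotation, acts with Upf2 (NMD2) and Upf3, and decapping followed by 5′ to 3′ digestion destroys the mRNA in yeast. Known substrates include mRNAs with a premature stop codon, unspliced pre-mRNAs, mRNAs with upstream open reading frames or a programmed frameshift, and mRNAs with a long untranslated part after the stop codon. NMD4 and EBS1 encode proteins found with Upf1. Nmd4 has a PIN domain. The comparison asks which transcripts change in level when NMD4 alone is missing.

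The libraries held 19947688, 28147469 and 26898660 counts in the nmd4 deletion, against 18537270, 14243384 and 29742476 counts in wild type. Each mating type a marker was detected in both groups, with a summed level over the 7 markers of 975 to 1269 CPM in the nmd4 deletion and 672 to 1419 CPM in wild type before scaling (CPM is a count divided by the library's total and rescaled). MF(ALPHA)1 and MF(ALPHA)2, which define mating type alpha, stayed at 2 to 5 counts in nmd4 libraries and 1 to 9 in wild type libraries. The other alpha markers were detected in both groups, SAG1 at 741 to 831 counts in nmd4 libraries and 518 to 738 in wild type libraries, and STE3 at 81 to 113 counts in nmd4 libraries and 19 to 126 in wild type libraries. The 4 alpha markers summed to 32.2 to 41.6 CPM in the nmd4 deletion and 29.5 to 38.4 CPM in wild type before scaling. MET17, deleted in BY4741, had 0 or 1 count in each library, and LYS2, deleted in BY4742, had at least 6709 counts in nmd4 libraries and at least 4280 in wild type libraries. Levels below are in CPM after TMM scaling. They follow RNA abundance per library, not decay rates, and CPM is not corrected for feature length. In bulk RNA a difference in every cell and a difference in some of the cells cannot be told apart. Features were tested with edgeR's quasi-likelihood test, with the replicate number as a block, in one model of the 12 libraries of the experiment. P-values were adjusted by the Benjamini-Hochberg method over the 10148 features tested, with a threshold of 0.05.

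NMD4 (YLR363C, chrXII:851956-853228, minus strand, R64) fell in the nmd4 deletion. It stood at 3.08, 3.60 and 1.94 CPM in nmd4 libraries, against 31.5, 27.2 and 22.8 CPM in wild type libraries. All nmd4 libraries lay below all wild type libraries, and the log2 fold change was -3.24 ± 0.18 (SE, n = 3 each, adjusted p = 3.5e-05, edgeR). The nmd4 libraries kept 10.6% of the wild type level, from 63, 102 and 50 counts. The counted feature reaches 77 bases before and 539 bases after the coding sequence, and the counts do not show where in it the remaining reads lie. NMD4 is not lost in the libraries labelled as the double deletion (log2 1.45 over wild type, adjusted p = 0.000334, edgeR). Those libraries therefore go against their label. They enter below through the shared model, in its feature filter, TMM scaling, replicate terms and estimate of the spread. Of the 6 neighbours of NMD4 that were tested, none passed, and their median log2 fold change was 0.08. The nearest to passing was DCR2, a phosphatase gene, at 57.7, 54.5 and 58.2 CPM in nmd4 libraries and 49.0, 49.9 and 48.4 CPM in wild type libraries (adjusted p = 0.273, edgeR).

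Beyond NMD4 itself, 9 mRNAs rose and no other feature fell (0.0887% of all features tested passed as higher and 0.00985% as lower). The 9 that rose were KSH1, HTL1, BIL1, SMD1, LTO1, HRT1, EST3, CPP2 and YOL159C-A. All are protein-coding, and they make up 0.158% of the 5705 coding features tested. Their fold changes were modest, from 1.39 to 1.68 times wild type (median 1.61). In each, all 3 nmd4 libraries lay above all 3 wild type libraries, which held for 4.71% of all features. The ratio of same-numbered libraries was 1.26 to 1.98 over the 27 pairs. The nmd4 library was higher in 3 of 3 pairs for each of the 9, and for 14.6% of all features. At an unadjusted p under 0.05, 564 features (5.56%) were higher and 604 (5.95%) lower. The number of calls depends on the model: 4 features rose without the replicate block, 1 (KSH1) without the labelled double deletion libraries, and 0 with only the 6 nmd4 and wild type libraries, where 287 were higher at an unadjusted p under 0.05, while DESeq2 called 33 higher and 25 lower. Leaving out nmd4 replicate 2 or nmd4 replicate 3 left 2 higher, and leaving out WT replicate 3 gave 14. Leaving out WT replicate 1 gave 42 higher and 30 lower. Leaving out all libraries of any 1 replicate number, from all 4 groups, gave 0 higher (420 to 524 at an unadjusted p under 0.05). The 9 mRNAs kept their direction in all 17 alternatives.

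**Figure D1:**
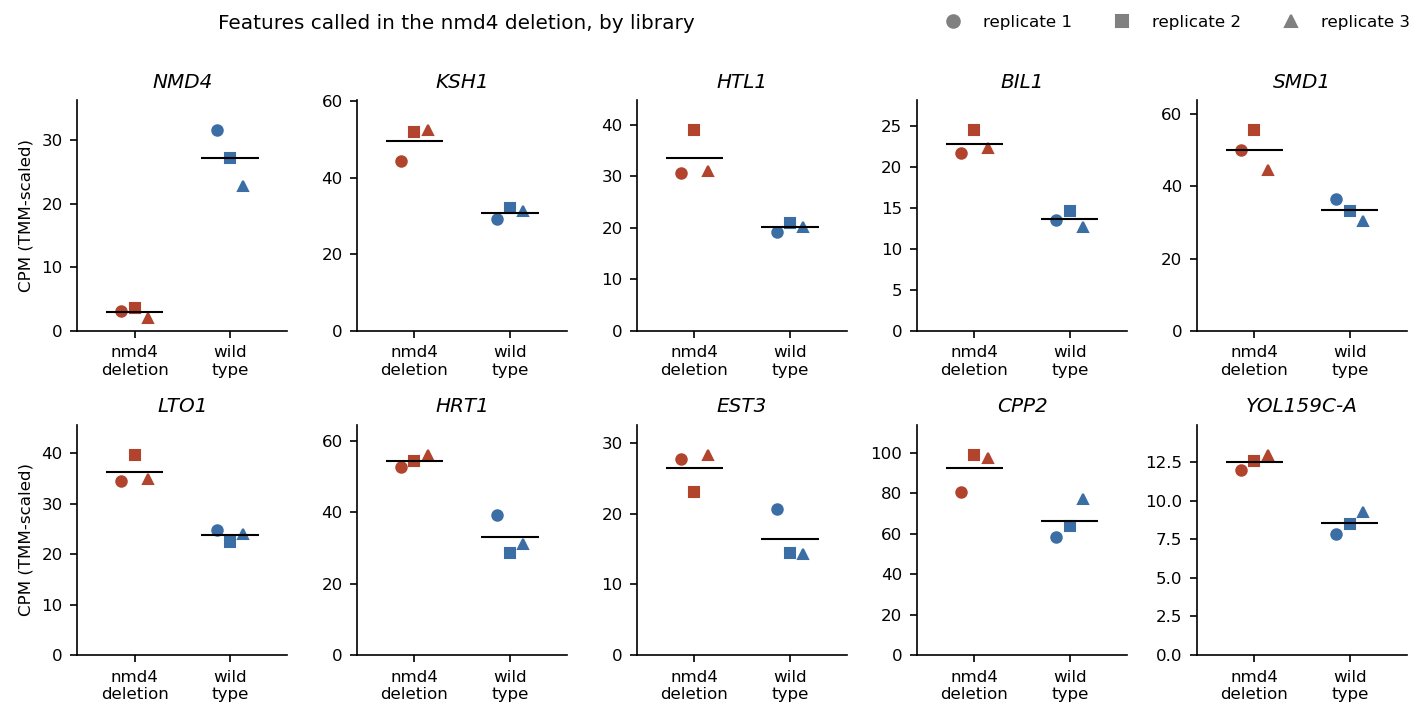
Level of NMD4 and of the 9 raised mRNAs in each library, in TMM-scaled CPM on axes that start at 0, with the nmd4 deletion on the left and wild type on the right of each panel. Each point is 1 library, the symbol gives its replicate number and the line is the group mean (n = 3 each). The groups do not overlap in any panel.

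The stop codons of the 9 raised mRNAs are shown because NMD acts where translation ends. Each window gives 12 bases on either side of the stop codon, 5′ to 3′ on the mRNA strand of R64, with the stop codon in capitals and the untranslated part to its right.
KSH1, chrXIV:586590-586616, minus strand: caatttaacagcTGAttggaagatact
HTL1, chrIII:155542-155568, plus strand: gaaaggaaaaagTAGgaaaacgcaaca
BIL1, chrXV:888508-888534, minus strand: aaaatgagtcggTGAgagcaggtgagt
SMD1, chrVII:636138-636164, plus strand: agaagaggtctaTGAttcgctgctggt
LTO1, chrXIV:156847-156873, minus strand: gctcaatcctggTAAgaataccaagtg
HRT1, chrXV:70676-70702, plus strand: agatgcggtaggTGAaaaaatgaattg
EST3, chrIX:335654-335680, minus strand: tataaatatttaTGAccttctgcaggc
CPP2, chrIV:871287-871313, plus strand: gtatgcgataacTGAttcgtttgttca
YOL159C-A, chrXV:15221-15247, minus strand: aaccctcgacagTAAtcagaccgagat
TGA ends 6 of the 9 coding sequences, TAA 2 and TAG 1. Among the 4754 nuclear coding features with usable ends, TGA ends 29.7%, TAA 48.2% and TAG 22.1%. Usable means that the feature encloses its coding sequence and lacks the placeholder ends given below. The windows were chosen with the calls known, and the difference in stop codon use was not tested.

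KSH1 encodes a very small protein needed for transport early in the secretory pathway. It had 44.4, 52.0 and 52.4 CPM in nmd4 libraries, against 29.1, 32.0 and 31.3 CPM in wild type libraries. The groups were well apart (log2 0.68 ± 0.06 SE, n = 3 each, adjusted p = 0.00171, edgeR). Its feature (YNL024C-A, chrXIV:586343-586902, minus strand) holds a coding sequence for 72 residues followed by 259 bases. The coding sequence is short enough to show whole, with the start and stop codons in capitals.
KSH1 coding sequence, chrXIV:586602-586820, minus strand: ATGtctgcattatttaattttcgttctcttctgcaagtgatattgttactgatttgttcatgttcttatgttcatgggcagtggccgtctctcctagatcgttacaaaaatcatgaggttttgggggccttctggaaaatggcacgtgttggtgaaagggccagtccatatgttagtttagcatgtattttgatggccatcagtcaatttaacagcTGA
None of the other 25 genes of early secretory transport listed with it passed, and the median of the list was -0.04. EMP24, which encodes a p24 cargo receptor of transport vesicles, had 188, 186 and 196 CPM in nmd4 libraries and 216, 202 and 214 CPM in wild type libraries (adjusted p = 0.336, edgeR).

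HTL1 encodes a small subunit of the chromatin remodelling complex RSC. It stood at 30.6, 38.9 and 31.0 CPM in nmd4 libraries, against 19.3, 21.0 and 20.1 CPM in wild type libraries. Replicate 2 was the highest of the nmd4 libraries, and the wild type libraries lay close together (log2 0.73 ± 0.07 SE, n = 3 each, adjusted p = 0.00371, edgeR). The feature (YCR020W-B, chrIII:155276-155916, plus strand) holds a coding sequence for 78 residues and 360 bases after it. BIL1 encodes a small protein that binds the actin regulator Bud6. BIL1 had 21.7, 24.5 and 22.4 CPM in nmd4 libraries, against 13.5, 14.6 and 12.7 CPM in wild type libraries (log2 0.75 ± 0.09 SE, adjusted p = 0.0101, edgeR). Its feature (YOR304C-A, chrXV:887953-888793, minus strand) holds a coding sequence for 76 residues and 567 bases after it, the longest such stretch of the 9. No other of the 16 listed genes of formins and the polarisome passed, and the list's median was -0.04. CDC42, the small GTPase of cell polarity, had 106, 103 and 101 CPM in nmd4 libraries and 118, 120 and 127 CPM in wild type libraries (adjusted p = 0.273, edgeR).

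SMD1 encodes an Sm protein of the spliceosomal small nuclear ribonucleoproteins. It stood at 50.1, 55.5 and 44.6 CPM in nmd4 libraries, against 36.5, 33.1 and 30.5 CPM in wild type libraries. The lowest nmd4 library was above the highest wild type library (log2 0.58 ± 0.07 SE, n = 3 each, adjusted p = 0.0101, edgeR). The feature (YGR074W, chrVII:635695-636407, plus strand) holds a coding sequence for 146 residues and 255 bases after it. LTO1 encodes an adaptor for inserting the iron-sulfur clusters of Rli1, the ATPase that recycles ribosomes. LTO1 had 34.4, 39.7 and 34.9 CPM in nmd4 libraries, against 24.7, 22.5 and 23.9 CPM in wild type libraries (log2 0.61 ± 0.07 SE, adjusted p = 0.0121, edgeR). Its feature (YNL260C, chrXIV:156558-157382, minus strand) holds a coding sequence for 162 residues and 301 bases after it. None of the other 10 genes listed with it for cytosolic iron-sulfur cluster assembly passed. RLI1 itself stood at 387, 428 and 387 CPM in nmd4 libraries and 411, 471 and 435 CPM in wild type libraries (log2 -0.13 ± 0.06 SE, adjusted p = 0.413, edgeR), and those groups overlapped.

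HRT1 encodes the RING subunit of SCF and other cullin ubiquitin ligases. It had 52.7, 54.3 and 56.1 CPM in nmd4 libraries, against 39.1, 28.6 and 31.2 CPM in wild type libraries. The nmd4 libraries were closer to each other than the wild type libraries, of which replicate 1 was the highest (log2 0.73 ± 0.10 SE, n = 3 each, adjusted p = 0.0256, edgeR). The feature (YOL133W, chrXV:70282-71090, plus strand) holds a coding sequence for 121 residues and 400 bases after it. No other of the 17 listed SCF genes passed. SKP1, the adaptor subunit of SCF, stood at 173, 136 and 180 CPM in nmd4 libraries and 163, 103 and 128 CPM in wild type libraries (log2 0.32 ± 0.09 SE, adjusted p = 0.268, edgeR), with overlapping groups.

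EST3 encodes a telomerase subunit that is made only when ribosomes shift forward by a base. It stood at 27.8, 23.1 and 28.3 CPM in nmd4 libraries, against 20.6, 14.4 and 14.3 CPM in wild type libraries. Wild type replicate 1 came nearest to the nmd4 libraries, without overlap (log2 0.70 ± 0.10 SE, n = 3 each, adjusted p = 0.0281, edgeR). The feature (YIL009C-A, chrIX:335520-336248, minus strand) holds a coding sequence for 181 residues in 2 parts, with 146 bases after it. The base that the annotation skips between the 2 parts is in capitals in the window below.
EST3 frameshift, chrIX:335923-335949, minus strand: acaccaaatacttAgttgagttttccc
Reading on without the shift, the ribosome meets a TGA stop after 93 codons, and the first part of the coding sequence has 92 codons. Of 14 listed genes of telomerase and telomere capping, EST3 was the 1 that passed. OAZ1 and ABP140, which are also annotated with a frameshift, did not pass. OAZ1, which encodes antizyme, had 18.4, 23.4 and 21.2 CPM in nmd4 libraries and 17.5, 18.8 and 26.4 CPM in wild type libraries (log2 0.00 ± 0.12 SE, adjusted p = 0.996, edgeR). ABP140, which encodes a tRNA methyltransferase that binds actin, stood at 260, 221 and 205 CPM in nmd4 libraries and 282, 219 and 235 CPM in wild type libraries (log2 -0.11 ± 0.08 SE, adjusted p = 0.656, edgeR). Both groups overlapped for OAZ1 and ABP140. These frameshift genes were picked by name with the EST3 call known, and any others in the annotation were not described.

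CPP2 (YDR210W, chrIV:871016-871592, plus strand) encodes a predicted membrane protein of 75 residues with 291 bases after the coding sequence. It had 80.4, 98.9 and 97.2 CPM in nmd4 libraries, against 58.4, 63.6 and 76.9 CPM in wild type libraries. The gap between the groups was the smallest of the 9 relative to their level, with wild type replicate 3 close to nmd4 replicate 1 (log2 0.48 ± 0.07 SE, n = 3 each, adjusted p = 0.0387, edgeR). YOL159C-A (chrXV:14694-15614, minus strand) is uncharacterised, with 90 residues and 539 bases after the coding sequence. It stood at 12.0, 12.6 and 13.0 CPM in nmd4 libraries, against 7.86, 8.48 and 9.28 CPM in wild type libraries (log2 0.55 ± 0.08 SE, adjusted p = 0.0445, edgeR). None of the 9 features overlapped another coding feature on the same strand, and reads were counted by strand. Overlap of the 9 with noncoding features on the same strand was not checked.

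The 9 raised mRNAs share a short coding sequence, and all but EST3 have a long stretch after it. The test did not use this structure. The 9 encode 72 to 181 residues (median 90), against a median of 414 over the 4754 nuclear coding features with usable ends. After the coding sequence their features run for 146 to 567 bases (median 301), against a median of 122. Both under 200 residues and at least 250 bases after were met by 8 of the 9, all but EST3, and by 2.80% of those coding features. An ATG lies upstream of the start codon in 3 of the 9 features, BIL1, LTO1 and YOL159C-A, and in 26.3% of the features. These limits were set after the values of the 9 were seen, so the shares describe them and carry no test. Of the 133 features within both limits, 8 rose, with a median log2 fold change of 0.07, and 24.1% were higher and 7.52% lower at an unadjusted p under 0.05. In the ebs1 deletion, set against the same wild type libraries, 18 of these 133 rose and 6 fell. Over all 10148 features, 327 (3.22%) rose and 244 fell there. In the nmd4 deletion, among the 684 equally short ones with under 250 bases after, 1 rose. At an unadjusted p under 0.05, 6.29% of them were higher and 11.0% lower. Among the 507 longer ones with at least 250 bases after, 0 rose, 7.30% were higher and 9.47% lower. For the remaining 3430, 0 rose and the shares were 2.19% higher and 8.22% lower. The ends of 567 coding features lie exactly 50 bases before and 100 bases after the coding sequence and were set aside as placeholders. Features that stop at the coding sequence, with 0 bases after it, stayed among the 4754.

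The features next in order of p that did not pass have similar ends in part. They were HCR1, NOP19, TCA17, SGF11, RCR2, COS8, CWC25 and HSK3, with adjusted p from 0.051 to 0.203 (edgeR), and 5 of these 8 have under 200 residues and at least 250 bases after. HCR1, which encodes a translation initiation and termination factor, stood at 339, 359 and 344 CPM in nmd4 libraries, against 273, 239 and 266 CPM in wild type libraries (log2 0.42 ± 0.07 SE, n = 3 each). NOP19, a gene of small ribosomal subunit assembly, had 53.8, 59.6 and 47.6 CPM in nmd4 libraries and 42.9, 44.7 and 38.3 CPM in wild type libraries (log2 0.35 ± 0.05 SE). In both the groups were apart, as the naming rule required. TCA17 (log2 0.48) encodes a subunit of the TRAPP vesicle tethering complex, SGF11 (0.49) a subunit of the SAGA deubiquitylation module, CWC25 (0.33) a splicing factor and HSK3 (0.45) a subunit of the DASH kinetochore complex. RCR2 (0.56) shares reads with an overlapping gene, and COS8 (0.82) belongs to a subtelomeric family with near-identical copies, so both values are uncertain.

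On the lower side, the next 8 coding features did not pass either (adjusted p from 0.202 to 0.268, edgeR). URA5, which encodes an orotate phosphoribosyltransferase of pyrimidine synthesis, stood at 263, 275 and 272 CPM in nmd4 libraries, against 310, 329 and 364 CPM in wild type libraries (log2 -0.31 ± 0.06 SE, n = 3 each). The others were CLG1 (-0.30), GUK1 (-0.25), TSC11 (-0.25), GLT1 (-0.41), LAA1 (-0.24), GPD2 (-0.44) and YGR109W-A (-4.45). YGR109W-A, a retrotransposon feature that overlaps YGR109W-B, had 0.196, 0.177 and 0.155 CPM in nmd4 libraries and 0.561, 14.4 and 0.687 CPM in wild type libraries. Its fold change rests on wild type replicate 2. LAA1 shares reads with NUC1. The groups were apart in all 8, since the naming rule required it, and 3.18% of all features lay below wild type in this way. None of the 8 met both length limits.

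All 9 raised mRNAs also rose in the upf1 deletion, whose libraries share no control with the nmd4 libraries. There 38.4% of all features and 27.0% of coding features rose. At least 2-fold rises were seen for 8 of the 9, against 20.2% of all features and 7.76% of coding features. HTL1 had 122, 102 and 125 CPM in upf1 libraries, against 22.1, 21.9 and 24.0 CPM in their wild type (log2 2.36 ± 0.06 SE, n = 3 each, adjusted p = 1e-09, edgeR). BIL1 (log2 2.20), YOL159C-A (2.13), EST3 (1.49) and HRT1 (1.43) followed. KSH1 (1.05), CPP2 (1.03), LTO1 (1.02) and SMD1 (0.75) showed the smallest rises. The difference between the upf1 effect and the nmd4 effect was tested in one model of all 18 libraries, in which 24.9% of features had a larger upf1 effect. The upf1 effect was larger for 8 of the 9, by 1.63 ± 0.10 (SE) on the log2 scale for HTL1 and 0.37 ± 0.08 for KSH1 (adjusted p = 8.11e-08 and 0.00307, edgeR). For SMD1 the difference was 0.17 ± 0.09 and did not pass (adjusted p = 0.144, edgeR).

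In the ebs1 deletion each of the 9 rose as well, against 3.22% of all features, but this comparison uses the same wild type libraries. HTL1 had 32.3, 38.4 and 34.7 CPM in ebs1 libraries, and KSH1 had 39.9, 48.0 and 45.9 CPM. Compared directly, without the wild type libraries, nmd4 minus ebs1 differences ran from -0.39 for YOL159C-A to 0.26 for SMD1 on the log2 scale. None of the 9 passed (adjusted p from 0.115 to 0.993, edgeR), in a contrast where 0.0394% of features passed in either direction. The standard errors were 0.06 to 0.10 on that scale, and a p that misses the threshold does not show that the deletions act alike on these mRNAs.

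**Figure D2:**
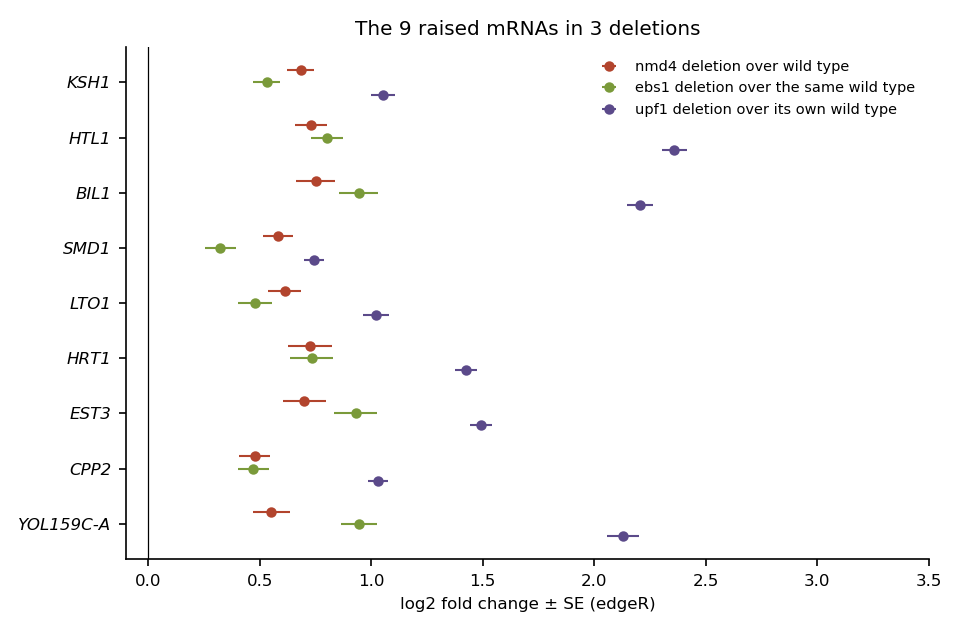
Log2 fold change ± SE of the 9 raised mRNAs in the nmd4, ebs1 and upf1 deletions, each over wild type (n = 3 libraries in every group). The nmd4 and ebs1 comparisons share their wild type libraries. All points lie to the right of 0, and the upf1 values lie farthest right, with HTL1 at 2.36 in the upf1 deletion and 0.73 in the nmd4 deletion.

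Genes of the NMD machinery did not pass in the nmd4 deletion, apart from NMD4. NAM7, the helicase gene, stood at 323, 351 and 313 CPM in nmd4 libraries and 305, 335 and 300 CPM in wild type libraries (log2 0.07 ± 0.05 SE, n = 3 each, adjusted p = 0.645, edgeR). NMD2 (log2 -0.09), UPF3 (-0.09), EBS1 (-0.07) and HRR25 (0.02), a casein kinase gene, were as near to 0. The 21 genes of decapping and 5′ to 3′ decay had a median of -0.03 with none called, among them DCP2, the decapping enzyme (log2 -0.12 ± 0.06, adjusted p = 0.474), and XRN1, the 5′ to 3′ exonuclease (-0.11 ± 0.06, adjusted p = 0.506, edgeR). The 12 deadenylase genes had a median of -0.12, and the 25 genes of the exosome, the Ski complex and nuclear decay one of -0.06, again with none called. Of the 12 termination and ribosome rescue genes none passed, and HCR1, given above, was the nearest.

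Among 23 mRNAs known as NMD substrates, EST3 rose and no other passed, while 18 of the 23 rose and 1 fell in the upf1 deletion, where 38.4% of all features and 27.0% of coding features rose and 34.4% of all features fell. The median log2 fold change of the list was 0.05 in the nmd4 deletion, against -0.003 over all features, and 0.87 in the upf1 deletion. CPA1, whose mRNA has an upstream open reading frame, stood at 153, 179 and 186 CPM in nmd4 libraries and 138, 156 and 185 CPM in wild type libraries (log2 0.12 ± 0.07 SE, n = 3 each, adjusted p = 0.549, edgeR). It was 1.89 on the log2 scale in the upf1 deletion. STN1, a telomere capping gene, was 0.10 ± 0.09 in the nmd4 deletion and 2.50 in the upf1 deletion. EST2 (0.04 ± 0.08) and EST1 (0.04 ± 0.08), telomerase genes like EST3, were 2.31 and 1.39 in the upf1 deletion. FRE2 (0.11), a ferric reductase gene, ALR1 (0.07), a magnesium transporter gene, and RPL22B (-0.06), whose unspliced transcript is a substrate, likewise did not pass in the nmd4 deletion. ADR1, a transcription factor gene, had 59.0, 60.1 and 50.2 CPM in nmd4 libraries and 63.9, 129 and 79.5 CPM in wild type libraries. All nmd4 libraries were below wild type (log2 -0.66 ± 0.18 SE, adjusted p = 0.268, edgeR), and wild type replicate 2 stood far above the rest. In the ebs1 deletion, which is set against the same wild type libraries, 7 of the 23 rose, against 3.22% of all features. GCN4 and YAP1, whose upstream reading frames are known not to trigger NMD, were -0.08 and 0.10 in the nmd4 deletion, and neither passed. In the upf1 deletion GCN4 rose by 0.22 ± 0.04 (SE) on the log2 scale (adjusted p = 0.00073, edgeR), and YAP1 was at 0.07 ± 0.04 (adjusted p = 0.153, edgeR).

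**Figure D3:**
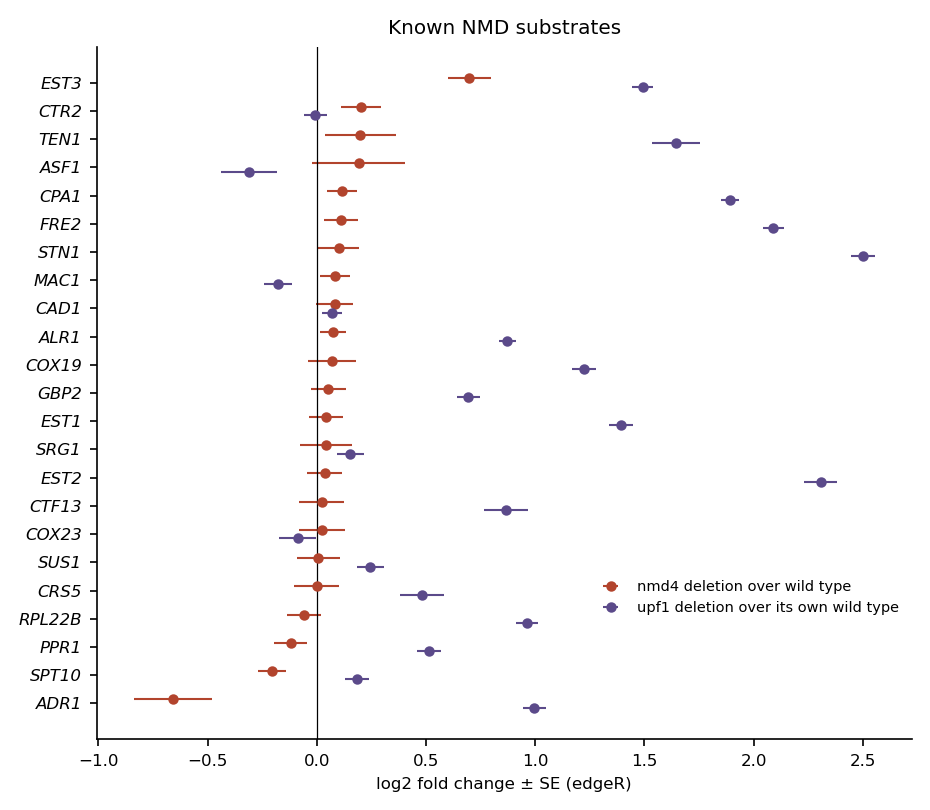
Log2 fold change ± SE of 23 known NMD substrates in the nmd4 deletion and in the upf1 deletion, each over its own wild type (n = 3 libraries per group), ordered by the nmd4 value. EST3 is at 0.70 in the nmd4 deletion, the others lie between -0.66 and 0.20, and 18 of the 23 rose in the upf1 deletion.

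The wider group of transcripts raised at least 2-fold in the upf1 deletion moved little at its median in the nmd4 deletion. Of 1870 such features tested, 8 rose, against 0.0887% of all features. A positive fold change was seen for 63.9% of the 1870, against 49.2% of all features, and their median was 0.09 on the log2 scale. Of the 422 that are coding, 8 rose, against 0.158% of all coding features. At an unadjusted p under 0.05, 14.2% of the 422 were higher, against 4.01% of all coding features. Their median was 0.07, against -0.02 over all coding features. No cryptic, stable unannotated or Xrn1-sensitive noncoding transcript was called, although 7.03% of the 1508 Xrn1-sensitive transcripts (XUTs) and 8.23% of the 753 stable unannotated transcripts (SUTs) were higher at an unadjusted p under 0.05, against 5.56% of all features. Of 664 cryptic transcripts (CUTs), 8.73% were higher and 1.96% lower at that p. Of 817 in the second CUT annotation, 6.49% were higher and 1.84% lower. In the upf1 deletion the median was 1.08 for XUTs and SUTs, 0.07 for CUTs and -0.13 for the second CUT annotation. That experiment was filtered on its own, with 501 CUTs and 690 of the second CUT annotation tested. XUTs took 0.522%, 0.506% and 0.496% of counts in nmd4 libraries, against 0.456%, 0.489% and 0.446% in wild type libraries. The groups did not overlap (log2 0.13, exact permutation p = 0.1, 2-sided, the smallest that 3 against 3 allows), and the share was higher in 3 of 3 pairs. SUTs took 0.373%, 0.356% and 0.349% of counts in nmd4 libraries, against 0.329%, 0.344% and 0.318% in wild type libraries (log2 0.12, exact permutation p = 0.1). CUTs took 0.123%, 0.142% and 0.116% in nmd4 libraries, against 0.108%, 0.108% and 0.115% in wild type libraries (log2 0.19, exact permutation p = 0.1). The SD of this CUT value between same-numbered pairs was as large, 0.19. The second CUT annotation took 2.22%, 2.09% and 2.43% in nmd4 libraries, against 2.13%, 1.89% and 2.31% in wild type libraries. Those groups overlapped (log2 0.09, exact permutation p = 0.5).

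Unspliced transcripts of ribosomal protein genes were read from the density of counts in introns relative to exons. Over 86 introns of 86 genes it was 3.69%, 3.37% and 2.58% in nmd4 libraries, against 3.14%, 2.49% and 2.13% in wild type libraries. The groups overlapped, but the nmd4 library was higher in 3 of 3 same-numbered pairs (log2 0.31, pairs from 0.23 to 0.44, exact permutation p = 0.2, exact sign-flip p = 0.25, which is the least obtainable from 3 pairs). Without wild type replicate 3 the difference was 0.18, and without nmd4 replicate 1 it was 0.21. None of the 89 introns tested singly passed, and 15 (16.9%) were higher and 1 (1.12%) lower at an unadjusted p under 0.05, against 5.56% and 5.95% of all features. The median of these introns was 0.14 on the log2 scale, with pair medians of 0.08, 0.36 and 0.01, and 0.87 in the upf1 deletion. The density is a ratio, and the 138 cytosolic ribosomal protein genes had a median of -0.16 in the nmd4 deletion, so lower exon counts enter it beside higher intron counts. The intron of RPS17B stood at 13.3, 18.0 and 11.5 CPM in nmd4 libraries, against 10.2, 8.34 and 10.3 CPM in wild type libraries (log2 0.51 ± 0.17 SE, adjusted p = 0.342, edgeR). In 175 other nuclear genes the density was 39.1%, 39.0% and 36.3% in nmd4 libraries, against 36.2%, 34.2% and 34.9% in wild type libraries. Those groups did not overlap (log2 0.12, exact permutation p = 0.1). For the 27 of these introns with at least 200 bases the groups overlapped (log2 0.10, exact permutation p = 0.2). Of 118 introns of other nuclear genes tested singly, 15.3% were higher and 0.847% lower at an unadjusted p under 0.05. Their median was 0.28 in the nmd4 deletion. In the upf1 experiment, which was filtered on its own, 83 introns of other nuclear genes were tested, with a median of 0.12. The medians are over different sets of introns.

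**Figure D4:**
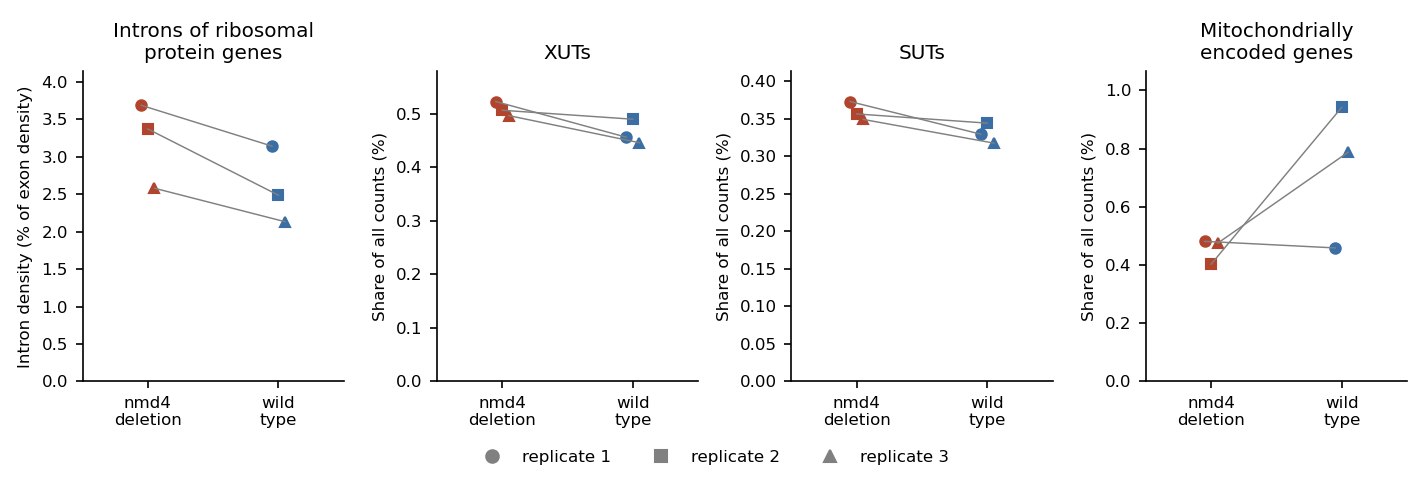
Intron density of ribosomal protein genes, in percent of exon density, and the shares of all counts on XUTs, SUTs and mitochondrially encoded genes in each library, with the nmd4 deletion left of wild type and lines joining same-numbered libraries. Intron density, XUTs and SUTs were higher in the nmd4 deletion in 3 of 3 pairs, and the mitochondrially encoded share was higher in 1 of 3.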

How the data were processed

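Stranded RNA-seq of the series was used as deposited read counts per feature. The authors made these counts with featureCounts (Subread 1.5.0-p3) on the sense strand, with reads given to every feature they overlap and without multiply aligned reads, per the file headers. The submitters' processing notes name STAR 2.4.2a and R64. Near-identical genes therefore lose reads, and overlapping features share them.

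Counts were tested in R 4.3.3 with edgeR 4.0.16 (filterByExpr, TMM, glmQLFit and glmQLFTest) on the 12 libraries of the second experiment, with group and replicate number as terms and a threshold of 0.05 after Benjamini-Hochberg adjustment. The upf1 experiment was fitted on its own 6 libraries with the same terms, and the difference of effects on all 18. DESeq2 1.42.0 was an alternative. Standard errors were taken from the log2 fold change and its F statistic. Shares and intron densities were compared with exact permutation and sign-flip tests. The script was tested on simulated data. Python 3.11.15 with pandas 2.3.3 and matplotlib 3.10.9 served for tables and figures.

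The labels say that same-numbered samples of the second experiment were handled in parallel. Deviations from group means correlated at 0.144 to 0.489 across 10148 features in same-numbered pairs and at -0.33 to 0.09 in crossed pairs. Deviations cancel within a group, so these ranges are not independent. Pairing was clearest for replicate 1 (0.489), and replicate 2 (0.144) lay near a crossed pair (0.09). Depth was 19947688 to 28147469 counts per nmd4 library and 14243384 to 29742476 per wild type library. Replicates differed by more than counting error, so errors are given between libraries.

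Named features were NMD4, all called features, members of the NMD lists and neighbours, and the 4 lowest p-values of other lists. To these came, in each direction, the first 8 coding features by p that did not pass, provided that the groups were apart and the higher mean reached 5 CPM. OAZ1 and ABP140 were added after values were seen. The comparison, lists and rules were chosen with earlier results of these data known. Gene lists are described by counts and medians, without a test. Of the list genes, 2 symbols did not match the annotation. Names, coding sequences and sequences come from RefSeq (R64), and protein sequences were not used here.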

Additional observations from a re-analysis of the deposited data

How the results depend on the processing

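NMD4 fell in all 17 alternatives, with a log2 fold change from -3.45 to -3.04. The 9 raised mRNAs kept their sign in each, but passed in 6 (YOL159C-A) to 13 (KSH1) of them, and their highest adjusted p was 0.78 to 0.79. The main model has the replicate block, since the labels say that same-numbered libraries were handled in parallel. Without that block 4 features rose and 1 fell, the 4 being among the 9 (KSH1, BIL1, LTO1 and HRT1). With the block, 0 rose in a fit of the 6 nmd4 and wild type libraries (287 at an unadjusted p under 0.05), 1 rose when the labelled double deletion libraries were left out, and DESeq2 called 33 higher, all 9 among them, and 25 lower. RLE size factors gave 9, scaling on coding features 13, no filter 10 and a filter at 30 counts 12 higher. Fits without 1 nmd4 or wild type library, or without all libraries of a replicate number, gave 0 to 42 features higher and 1 to 30 lower. The intron density difference of ribosomal protein genes ranged from 0.18 to 0.46 without single libraries. The median of all features stayed between -0.01 and 0.02 in every alternative. The median of the 133 short coding features with long 3′ parts ranged from 0.05 to 0.08, that of the known substrates from 0.04 to 0.09 and that of features raised at least 2-fold in the upf1 deletion from 0.06 to 0.11. Over the 9 mRNAs, 71 of the alternative tests lost the threshold, and over the lists 76 medians moved by more than the spread between pairs. Where calls were lost with fewer libraries, the alternatives hold fewer samples, and other causes were not tested.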

Other observations

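Several gene groups outside NMD leaned one way in the nmd4 deletion without a called member. In the ebs1 deletion, set against the same wild type libraries, the groups below leaned the same way. In the upf1 deletion, set against its own wild type libraries, this held for only some of the groups. The upf1 medians had the opposite sign for the iron regulon (-0.12), pyrimidine synthesis (0.32) and sulfur and methionine genes (0.20). They had the same sign for ribosomal protein genes (-0.46) and mitochondrially encoded features (-0.36). The ebs1 medians were -0.27 for cytosolic ribosomal protein genes, -0.93 for mitochondrially encoded features and 0.12 for the iron regulon. They were -0.25 for pyrimidine synthesis and -0.08 for sulfur and methionine genes. There 45 ribosomal protein genes and 6 mitochondrially encoded features were called lower, against 244 of all 10148 features. At an unadjusted p under 0.05, 62 genes of cytosolic ribosomal proteins were lower and 1 was higher, of 138 tested, with a median log2 fold change of -0.16 and pair medians of -0.16, -0.04 and -0.29. RPS28B, a small subunit protein gene, stood at 403, 443 and 462 CPM in nmd4 libraries and 440, 684 and 687 CPM in wild type libraries (adjusted p = 0.203, edgeR). Of 18 mitochondrially encoded features, 17 were lower at an unadjusted p under 0.05, but the pair medians were -0.00, -1.26 and -0.98. These features took 0.481%, 0.403% and 0.475% of counts in nmd4 libraries, against 0.459%, 0.942% and 0.788% in wild type libraries, so wild type replicates 2 and 3 stand apart from wild type replicate 1. COX1, a cytochrome oxidase subunit gene, was at -0.79 ± 0.19 on the log2 scale (SE, adjusted p = 0.268, edgeR).

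Genes of iron uptake leaned the other way. Of 23 genes of the iron regulon, 7 were higher and 0 lower at an unadjusted p under 0.05, with a median of 0.19 and pair medians of -0.05, 0.62 and 0.19. ARN2, a siderophore transporter gene, had 105, 97.8 and 65.3 CPM in nmd4 libraries and 86.7, 33.4 and 49.9 CPM in wild type libraries (log2 0.69 ± 0.20 SE, adjusted p = 0.284, edgeR). SIT1, another siderophore transporter gene, had 254, 237 and 170 CPM in nmd4 libraries and 252, 119 and 99.1 CPM in wild type libraries. Wild type replicate 1 lay within the range of the nmd4 libraries for SIT1 and ARN2. Of 9 pyrimidine synthesis genes, 4 were lower and 1 higher at an unadjusted p under 0.05, with pair medians of -0.11, -0.26 and -0.23. Of 28 genes of sulfur and methionine metabolism 9 were lower and 0 higher, with pair medians of -0.07, -0.13 and -0.14. Over the 17 alternatives the list medians kept their sign, from 0.06 to 0.39 for the iron regulon, -1.07 to -0.48 for the mitochondrially encoded features and -0.23 to -0.08 for the ribosomal protein genes. Over all 10148 features the share at an unadjusted p under 0.05 was 5.56% higher and 5.95% lower.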
